A study of Mus musculus with 3 samples.

Results

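Zic1, Zic2, Zic4 and Zic5 encode zinc finger transcription factors and lie in the mouse genome as divergent neighbours, Zic2 beside Zic5 on chromosome 14 and Zic1 beside Zic4 on chromosome 9. The 4 genes were followed in peak lists of Suz12 and H3K27me3 from small intestinal crypts. Their members were the deposited peaks within 20 kb of the gene bodies: 28 of 1477 Suz12 peaks and 71 of 25955 H3K27me3 peaks. The loci were chosen by their Suz12 and H3K27me3 peak positions, numbers and values in these same lists, so these are given as a description, with no test.

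Zic proteins are related to odd-paired of Drosophila and to the Gli factors of Hedgehog signalling. They act in the early embryo in neural plate, neural crest, somites and cerebellum. Zic2 is needed for forebrain division and neural tube closure, Zic5 for neural crest and neural tube development, and Zic1 and Zic4 together for growth of the cerebellum. Polycomb repressive complex 2 (PRC2), of which Suz12 is a core subunit, trimethylates histone H3 at lysine 27 (H3K27me3). The complex is known for holding developmental regulators of other tissues silent, often at CpG-rich promoters.

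Chromatin immunoprecipitation followed by sequencing (ChIP-seq) gave 1 Suz12 library and 1 H3K27me3 library, and the series also has 1 input library made without antibody. All 3 came from crypts of C57BL/6 mice with the genotype Lgr5Gfp-CreERT2, an allele that reports the intestinal stem cell gene Lgr5, and the design text calls the cells wild type. Whole crypts were fixed, so the lists average over stem and progenitor cells, Paneth cells and any other cells that came with the crypts. How many mice were used is not stated. Peak values start at 8 in both lists, and nothing is known here of sites below that. Expression was not measured in these libraries.

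Because the lists follow mm9 and the annotation GRCm38.p6, the genes were set on the peaks by a shift read from neighbouring sequence. Before the Zic2/Zic5 pair, 13 of 23 CpG-rich gene starts met an H3K27me3 peak at a shift of 399.3 kb, and no shift more than 5 kb away gave over 4. Before the Zic1/Zic4 pair, 12 of 48 starts met one at -105.7 kb, against at most 5 elsewhere. After that pair, 9 of 48 met one at -99.7 kb, against at most 6 elsewhere. The 2 flanks thus left 6 kb of doubt about Zic1 and Zic4, and their mean of -102.7 kb was used. This mean is a compromise that neither flank gave. The best shifts ran from -106 to -105.4 kb before the pair and from -100.2 to -99.2 kb after it. After the Zic2/Zic5 pair only 3 starts were left before the chromosome end and gave no shift. The Zic loci took no part in these estimates.

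**Figure D1:**
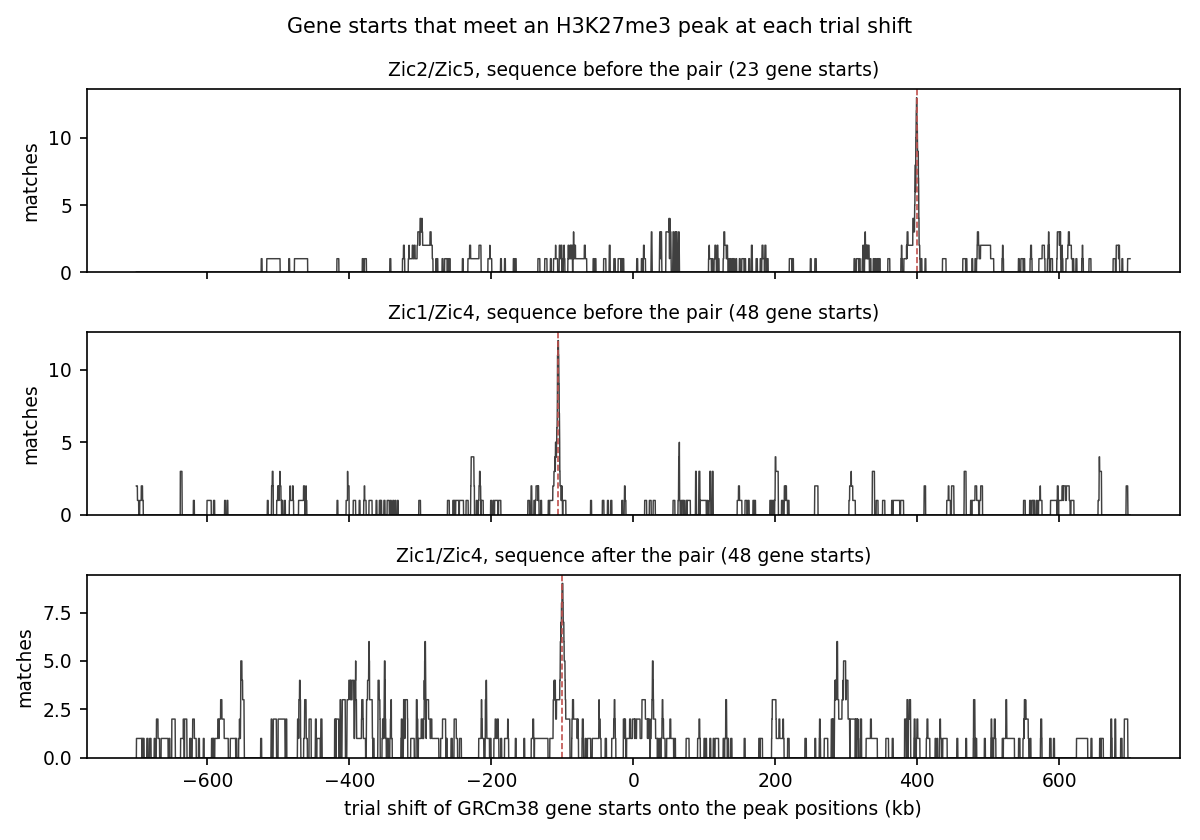
Number of CpG-rich gene starts that came within 500 bp of an H3K27me3 peak (vertical axis) at each trial shift in kb (horizontal axis), for the flanks that gave a shift; the dashed line marks the estimate. The highest points hold 13, 12 and 9 matches from top to bottom.

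Both pairs lay under H3K27me3, and in number of peaks and covered sequence they differed more in Suz12 than in the mark. The Zic2/Zic5 window held 23 Suz12 peaks and the Zic1/Zic4 window 5, a ratio of 4.6. The H3K27me3 peaks numbered 37 at Zic2/Zic5 and 34 at Zic1/Zic4, a ratio of 1.09. In sequence, Suz12 peaks covered 14774 bp at Zic2/Zic5 and 2135 bp at Zic1/Zic4, a ratio of 6.92, and H3K27me3 peaks covered 34329 bp and 25441 bp at the same pairs, a ratio of 1.35. Typical peaks did not follow this order. The ratio of Zic2/Zic5 to Zic1/Zic4 in median value was 1.15 for Suz12 and 1.16 for H3K27me3, and in median width 1.03 for Suz12 and 1.3 for H3K27me3. With 1 library per antibody, none of these differences can be set against a replicate error. The windows also differ in length, and numbers and covered lengths are not given per kb. The Zic1/Zic4 window is the longer, with gene bodies of 7711 bp (Zic1) and 23721 bp (Zic4). At Zic2/Zic5 the bodies measure 4945 bp (Zic2) and 6499 bp (Zic5) and lie 9.73 kb apart.

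**Figure D2:**
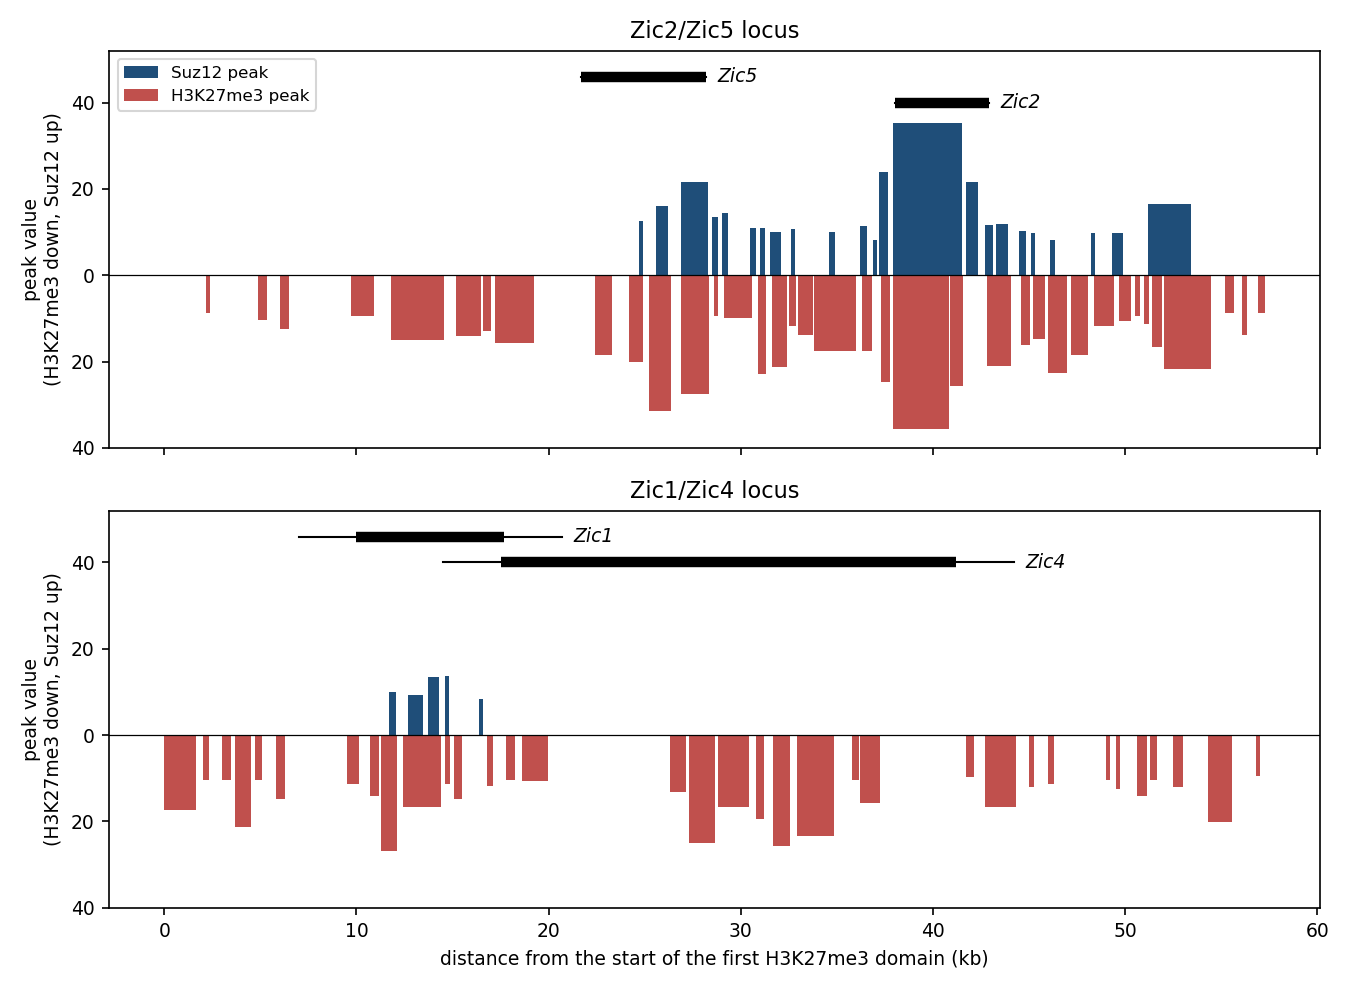
Peaks at the Zic2/Zic5 locus (top) and the Zic1/Zic4 locus (bottom), with Suz12 values drawn upward and H3K27me3 values downward (vertical axis) against distance in kb from the start of the first H3K27me3 domain (horizontal axis); each bar is 1 peak drawn to its width. Thick black lines are the placed gene bodies, and thin lines show how far the shifts of the 2 flanks move Zic1 and Zic4. The 23 Suz12 peaks of Zic2/Zic5 spread over 28.7 kb and the 5 of Zic1/Zic4 over 4.91 kb.

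At Zic2/Zic5, the strongest Suz12 peak covered chromosome 14 at 122874657-122878258 (mm9). It was 3602 bp wide with a value of 35.34, at percentile 98.2 of the Suz12 list, and 97.2% of it lay under H3K27me3 peaks. The strongest H3K27me3 peak of the locus lay on the same sequence, at 122874615-122877560, with a value of 35.54 and 98.6% of its length under Suz12. Both lay over most of the placed body of Zic2, which began 38 kb into the domain. Of the 4945 bp of that body, 89.2% lay in Suz12 peaks and 73.7% in H3K27me3 peaks. With the genes 5 kb lower, the Suz12 share of Zic2 was 27.7%, with a highest value of 23.92, and with them 5 kb higher it was 33.1%, with a highest value of 11.86.

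The next Suz12 peak in value stood directly before it, at 122873944-122874419, with 23.92. It fell in the placed body of 2610035F20Rik, a long noncoding RNA gene between Zic5 and Zic2. After these came the peak just past Suz12's strongest, at 122878441-122879101, with 21.7, which overlapped no H3K27me3 peak although it lay within the domain. These 3 peaks, in or beside the placed body of Zic2, had the highest Suz12 values of the locus. The third, with 21.7, was barely above a peak of 21.65 at Zic5.

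A further peak stood at the other gene of the pair. The placed start of Zic5 fell in the Suz12 peak at 122863671-122865042, which had a value of 21.65, or within 16 bp of its edge over the shifts from 399.2 to 399.4 kb that gave the same number of matches. H3K27me3 at 122863609-122865060, with a value of 27.54, covered the same start. Its neighbour at 122861914-122863097 was the second strongest H3K27me3 peak of the locus, with 31.5, and it also lay in the placed Zic5 body. Suz12 peaks covered 32.8% and H3K27me3 peaks 64.3% of the 6499 bp of Zic5. Moving the genes 5 kb lower would leave Zic5 with no Suz12 peak, and 5 kb higher with 7, so which peak belongs to which gene rests on the shift.

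Suz12 did not stop at the 2 coding genes. Under the same shift, 3 Suz12 peaks with values up to 11.86 lay on Gm33769, a noncoding gene that follows Zic2. Pcca, which encodes a subunit of the mitochondrial propionyl-CoA carboxylase, begins after it, and its first part carried 3 Suz12 peaks with values up to 16.42 and 11 H3K27me3 peaks with values up to 22.55. The strongest of those Suz12 peaks was 2212 bp wide, at 122887901-122890112. On the other side, 24.7 kb of the domain before the first Suz12 peak held 10 H3K27me3 peaks and no Suz12 peak.

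The 23 Suz12 values at Zic2/Zic5 ran from 8.05 to 35.34. Their median of 11.5 was close to the 11.7 of the whole list, so the pair did not stand out in the middle of its values. Its number of Suz12 peaks was among the values on which the loci were chosen. A value of at least 20 was reached by 4 of the 23 (17.4%) and by 12.1% of all Suz12 peaks, and so few peaks cannot set these shares apart. Widths ran from 200 to 3602 bp, with a median of 359 bp against 421 bp in the list.

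At Zic1/Zic4, all 5 Suz12 peaks stood within 4.91 kb of chromosome 9. Their values in order along the chromosome were 9.99, 9.19, 13.45, 13.6 and 8.42, so none reached 20. The last 2 in this order were 217 and 207 bp wide, and the widest, at 91258091-91258837, measured 747 bp. The 3 strongest were those at 91259975-91260191, 91259142-91259756 and 91257100-91257448. Even the strongest, at percentile 65.3 of the list, was well below the 4 strong peaks of Zic2/Zic5. The median was 9.99, at percentile 30.8.

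All 5 peaks overlapped the placed body of Zic1 when the mean shift was used, and 4 of them did so with the shift of either flank. With the genes 5 kb lower, Zic1 had 1 Suz12 peak and Zic4 had 4, and with them 5 kb higher, Zic1 had 1 and Zic4 had none. On Zic4 there was no Suz12 peak with the mean shift or that of the flank after the pair, and 2 with that of the flank before it. The annotated bodies of Zic1 and Zic4 overlap by 138 bp. That of Zic4 is the longer, at 23721 bp against 7711 bp for Zic1. H3K27me3 covered 43.6% of Zic4 (10 peaks) and 58.1% of Zic1 (7 peaks) with the mean shift. On Zic4 this share was 47.8% and 44.5% with the shifts of the flanks before and after, and on Zic1 51.9% and 56.4%.

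The strongest H3K27me3 peak of the chromosome 9 locus stood at the Suz12 group, at 91256688-91257522, with a value of 26.77 and 41.8% of its length under Suz12. The next 2 did not. Those at 91277081-91277964 and 91272728-91274107 had values of 25.7 and 24.95, lay on the placed body of Zic4, and overlapped no Suz12 peak. The peak at 91278282-91280244, with a value of 23.32, also lay there without Suz12.

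**Figure D3:**
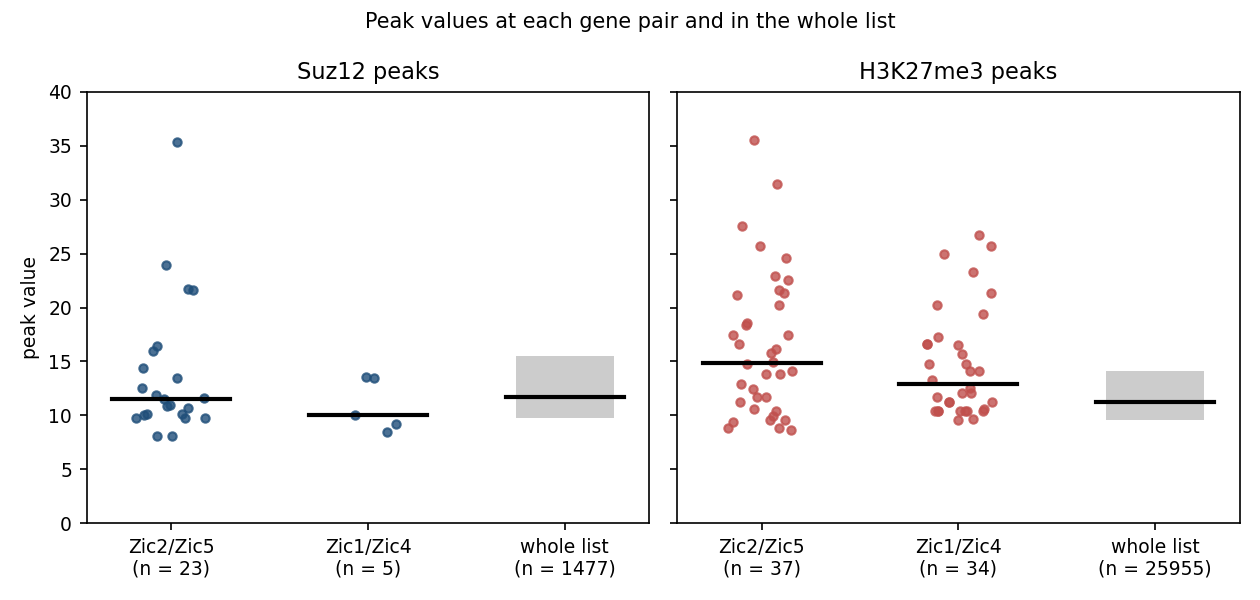
Peak values (vertical axis) of Suz12 (left) and H3K27me3 (right) at Zic2/Zic5, at Zic1/Zic4 and in the whole list; points are single peaks, black lines medians, and the grey box runs from the lower to the upper quartile of the list. Suz12 values reach 35.34 at Zic2/Zic5 and 13.6 at Zic1/Zic4, while the H3K27me3 medians are 14.9 and 12.9 at the same pairs.

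H3K27me3 values at both pairs lay above those of the list as a whole. The median was 14.9 at Zic2/Zic5 (quartiles 11.2 and 21.1) and 12.9 at Zic1/Zic4 (quartiles 10.5 and 16.6), against 11.2 over the list. Values of at least 20 were found in 11 of 37 peaks (29.7%) at Zic2/Zic5 and 6 of 34 (17.6%) at Zic1/Zic4, and in 7.73% of all H3K27me3 peaks. Peaks were also wider, with a median of 652 bp at Zic2/Zic5 and 500 bp at Zic1/Zic4, against 379 bp.

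The share of H3K27me3 peaks that overlapped Suz12 differed between the pairs. This share follows in part from the number of Suz12 peaks (23 at Zic2/Zic5 and 5 at Zic1/Zic4), on which the loci were chosen. Its intervals take neighbouring peaks of 1 library as independent. At Zic2/Zic5, 22 of 37 H3K27me3 peaks overlapped a Suz12 peak, or 59.5% (95% interval 42.1 to 75.2). At Zic1/Zic4, 3 of 34 did, or 8.82% (1.86 to 23.7). Over the whole list the share was 4.71%, so Zic1/Zic4 lay near it and Zic2/Zic5 far above. All 11 strong H3K27me3 peaks of Zic2/Zic5, those with a value of at least 20, overlapped Suz12. Of the 6 at Zic1/Zic4, 1 did. In the list this held for 32% of H3K27me3 peaks of that strength.

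In the other direction both shares were high. H3K27me3 overlapped 21 of 23 Suz12 peaks at Zic2/Zic5, or 91.3% (95% interval 72.0 to 98.9), and 4 of 5 at Zic1/Zic4, or 80.0% (28.4 to 99.5), against 96.3% of the list. These wide intervals do not show that the pairs share 1 rate. The exceptions at Zic2/Zic5 were the peak of value 21.7 in the placed body of Zic2 and a 200 bp peak of value 8.05 at 122873622-122873821. At Zic1/Zic4 the exception was the weakest peak, of value 8.42. By sequence, 83.9% of Suz12 peaks at Zic2/Zic5 and 87.9% at Zic1/Zic4 lay under H3K27me3, against 90.0% in the list.

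**Figure D4:**
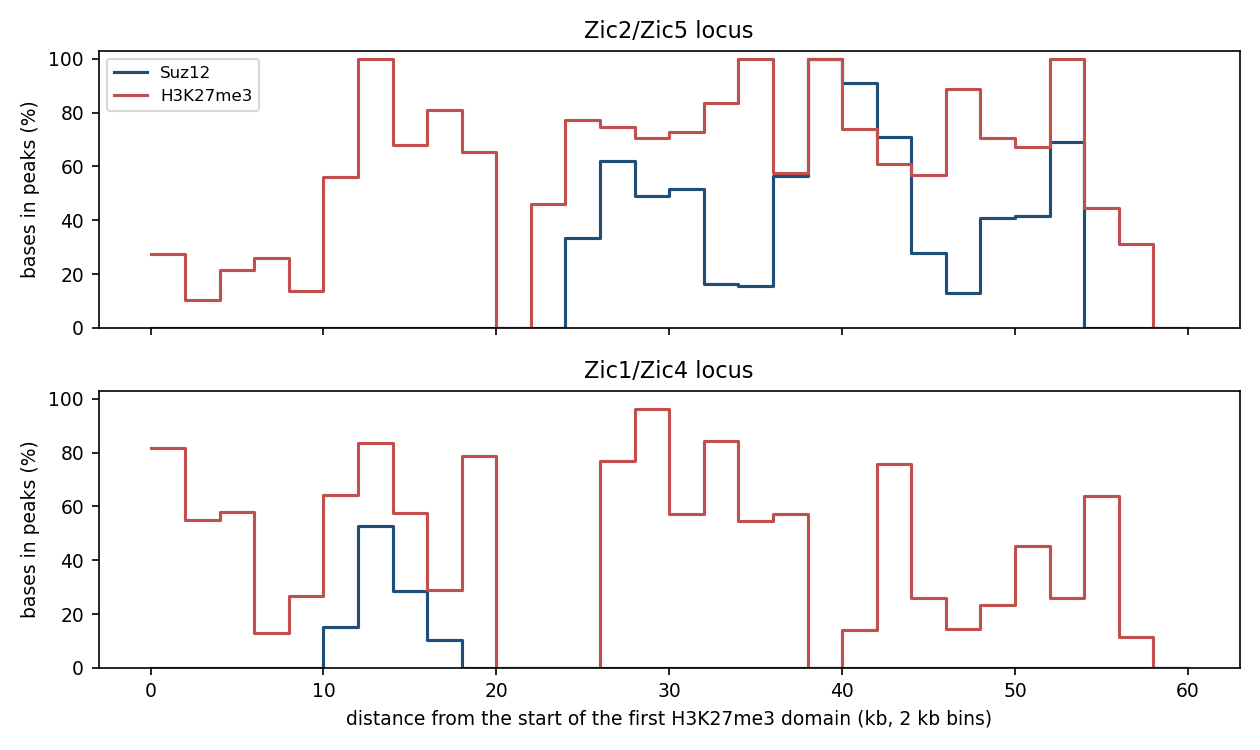
Share of bases within Suz12 and H3K27me3 peaks (vertical axis, %) in 2 kb bins along the Zic2/Zic5 locus (top) and the Zic1/Zic4 locus (bottom), by distance in kb from the start of the first H3K27me3 domain. Of 30 bins, 15 at Zic2/Zic5 and 4 at Zic1/Zic4 hold Suz12.

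The domains were of unlike build. At Zic2/Zic5, peaks joined into 1 domain on chromosome 14 at 122836734-122893973, 57.2 kb long, with 38 H3K27me3 peaks over 60.9% of its length. Zic1/Zic4 had 2 domains on chromosome 9, parted by 6.28 kb. The first, at 91245402-91265383, was 19982 bp long and held 15 H3K27me3 peaks and all 5 Suz12 peaks. The second, at 91271663-91302461, was 30.8 kb long and held 19 H3K27me3 peaks and no Suz12 peak. With a joining gap of 10000 bp they became 1 domain of 57.1 kb, close in length to that of Zic2/Zic5.

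Values in the second domain were not lower than in the first. Its H3K27me3 median was 13.3, with 4 values of at least 20, and the first domain had a median of 11.7, with 2. Peaks covered 47.1% of the second and 54.8% of the first. Numbers in the peak names bear on whether a Suz12 peak was left out there. The 5 Suz12 peaks carry consecutive numbers, and a single number is missing between the last of them and the next listed Suz12 peak, 7550 kb beyond the window. If numbers follow position, as they do among the listed peaks of these loci, at most 1 numbered Suz12 peak was left out of that domain. At Zic2/Zic5, 5 numbers are missing among the 23 peaks.

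Within the Suz12 stretches the median of the mark was above that of the rest of the same domain. At Zic2/Zic5, Suz12 peaks spanned 28.7 kb (50.1% of the domain), where 25 H3K27me3 peaks had a median of 17.5. The 13 outside had a median of 12.5 and none above 18.53. At Zic1/Zic4, the 4 H3K27me3 peaks in the 4.91 kb span had a median of 15.7. In the rest of the first domain 11 peaks had a median of 11.2, with the highest at 21.31. The 4 peaks in the span ran from 11.27 to 26.77, and the second domain, with no Suz12, reached 25.7, so the values inside and outside the span overlapped.

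In 2 kb bins, H3K27me3 covered over 50% of the sequence in 20 of 30 bins at Zic2/Zic5 and 15 of 30 at Zic1/Zic4. Of those bins, 5 at Zic2/Zic5 and 12 at Zic1/Zic4 had no Suz12. Suz12 itself covered over 50% in 7 bins at Zic2/Zic5 and 1 at Zic1/Zic4.

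**Figure D5:**
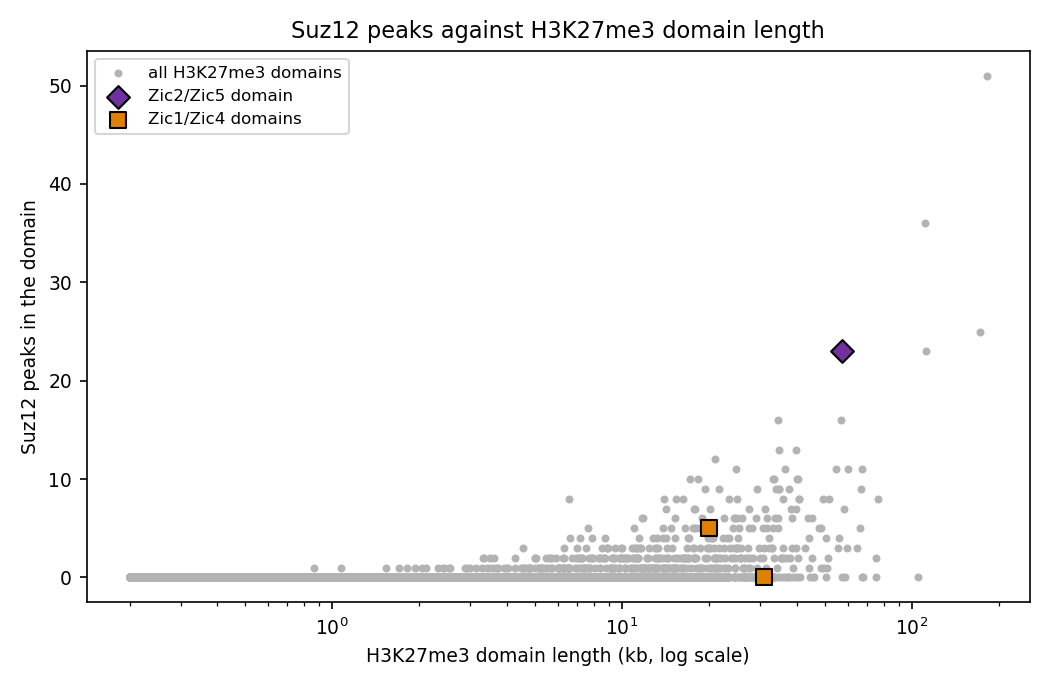
Suz12 peaks (vertical axis) against length in kb on a log scale (horizontal axis) for all 7663 H3K27me3 domains (grey), with the Zic2/Zic5 domain (diamond) and the 2 Zic1/Zic4 domains (squares). The Zic2/Zic5 domain, with 23 Suz12 peaks, lies above the 17 others within 15% of its length, and the Zic1/Zic4 domains lie at 5 and 0.

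Of all 7663 domains, 1.19% held at least 5 Suz12 peaks. This cut equals the number in the first Zic1/Zic4 domain, so the place of that domain in the group follows from the cut. Also in the group was the Zic2/Zic5 domain. The Zic2/Zic5 domain ranked 19 by length and shared rank 4 by Suz12 number, with 3 domains above it. Of 17 other domains within 15% of its length, 14 held Suz12, with a median of 3 peaks over all 17 and a highest number of 16. That highest number belonged to the domain next below it in the order, on chromosome 11 at 96024945-96081822, 56.9 kb long. The nearest domain in length, on chromosome 15 at 81890441-81947584, was 57.1 kb long, with 34 H3K27me3 peaks over 27.3% of its length and no Suz12.

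The first Zic1/Zic4 domain shared its 5 Suz12 peaks with 24 others and had 66 domains above it. Among 172 other domains of like length, 10 held more Suz12 peaks, 8 as many and 154 fewer. The second was 1 of the domains of at least 20 kb that hold no Suz12, 118 of 275 in all. Of the 84 others of like length, 41 held none. The share of the second domain covered by H3K27me3, 47.1%, was near the median of 44.7% in that group, where 34 of 84 were covered more.

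Beyond their own domains no Suz12 peak was listed near the pairs. Only 461 of 7663 domains held Suz12, and distances to the next Suz12 peak were not compared with those of other domains. The nearest other Suz12 peak was 4200 kb from the Zic2/Zic5 domain and 7590 kb from the first Zic1/Zic4 domain. H3K27me3 was next found 1190 kb before the Zic1/Zic4 domains and 1130 kb after them. Around Zic2/Zic5 it was 14.6 kb before, as a single peak of value 8.75, and 1130 kb after. Just outside the 20 kb window of Zic2/Zic5 lay an H3K27me3 peak of value 8.11, and the first inside had a value of 8.86. At Zic1/Zic4 the first and last peaks inside had values of 17.26 and 9.55, with none near the window outside.

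Promoter sequence was at hand for 3 of the 4 genes and is shown because PRC2 is known to favour CpG-rich starts and because Suz12 was found at the placed starts of Zic5 and, with 1 of the 2 flank shifts, Zic1. The 250 bases before each gene start (RefSeq, GRCm38.p6) are printed 5′ to 3′ on the strand of the gene, with each CG in capitals. They lie on the minus strand at chr14:122465659-122465908 (Zic5), on the minus strand at chr9:91365769-91366018 (Zic1) and on the plus strand at chr9:91368722-91368971 (Zic4). The Zic4 start of the promoter table lies inside the annotated gene body, so its sequence is not that before the body.
Zic5: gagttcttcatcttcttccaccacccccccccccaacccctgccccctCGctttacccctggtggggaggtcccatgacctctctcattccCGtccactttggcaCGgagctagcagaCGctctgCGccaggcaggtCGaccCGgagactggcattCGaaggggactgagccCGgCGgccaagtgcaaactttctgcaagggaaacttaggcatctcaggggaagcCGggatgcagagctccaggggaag
Zic1: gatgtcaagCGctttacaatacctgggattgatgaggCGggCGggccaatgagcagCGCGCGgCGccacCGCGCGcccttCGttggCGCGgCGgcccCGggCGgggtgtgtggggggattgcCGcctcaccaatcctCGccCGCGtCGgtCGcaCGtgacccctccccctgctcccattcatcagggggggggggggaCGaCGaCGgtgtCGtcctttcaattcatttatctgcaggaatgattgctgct
Zic4: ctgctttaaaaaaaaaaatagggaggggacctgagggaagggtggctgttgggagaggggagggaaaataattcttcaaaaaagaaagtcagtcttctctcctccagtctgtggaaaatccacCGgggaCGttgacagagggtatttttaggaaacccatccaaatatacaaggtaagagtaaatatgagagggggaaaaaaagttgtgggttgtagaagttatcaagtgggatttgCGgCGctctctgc

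Of the 4 genes, Zic2 has no sequence printed. The bases CG, which read alike on both strands, occurred 11 times before Zic5, 27 times before Zic1 and 4 times before Zic4. GC content was 62.4%, 66% and 44.4% in the same order. Over 32851 promoters of the table the median was 6 CG and 52.4% GC, and 92.1% held at least 1 CG. At least as many CG as Zic1 were found in 8.56% of promoters, as Zic5 in 35.6% and as Zic4 in 62.2%. The Suz12 peak at the placed start of Zic5 had a value of 21.65. With the shift of the flank before, the placed start of Zic1 fell in the Suz12 peak of value 13.6. With that of the flank after, the Zic1 start was 4062 bp from the nearest Suz12 peak, of value 8.42. A link between CG number and Suz12 was not tested, and Zic2, with the strongest peak, is absent from these sequences. The placed promoter-table start of Zic4 lay 3.2 kb from that of Zic1, inside the annotated body of Zic4. Over all shifts of the 2 flanks, this start was 966 to 7766 bp from the nearest Suz12 peak. It was 0 to 2890 bp from the nearest H3K27me3 peak. With the shift of the flank before, this start lay 17.9 kb from the domain start. The annotated body began at 14.5 kb, beside a Suz12 peak that began at 14.6 kb. With the shift of the flank after, the positions were 23.9 and 20.5 kb, and the body held no Suz12 peak.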

How the data were processed

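Peak lists of 2 ChIP-seq libraries, Suz12 and H3K27me3, were used, with 1 library per antibody. Bowtie, MACS2 and mm9 are listed, without roles or parameters, in the submitters' processing notes. The authors deposited, per peak, a position and a score, called the peak value here. Neither its scale nor any use of the input in peak calling is stated in those sources. Scores begin at 8, no read counts are held, and the depth is therefore unknown. Values are the authors' own and were used only to describe or rank peaks within a list.

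The lists use mm9, and the gene table at hand (RefSeq, GRCm38.p6) does not. Gene bodies were therefore placed by a shift estimated beside each pair. Gene starts with CpG-rich promoters (GC above 50%, observed to expected CpG above 0.6) within 12 Mb, leaving out the nearest 500 kb, were moved in steps of 200 bp over 700 kb either way. The shift at which most of them came within 500 bp of an H3K27me3 peak was kept if it had at least 6 matches and 1.5 times those of any shift more than 5 kb away. Of 8 simulated shifts, 8 were recovered within 1 kb. This assumes no build difference inside the pair or between it and its flanks. On chromosome 9 the 2 flanks gave unlike shifts, so the assumption cannot hold for both. No converted coordinate is printed.

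Peaks were counted within 20 kb of the gene bodies of a pair. Overlap meant at least 1 bp. H3K27me3 peaks with gaps of at most 5000 bp were joined into domains. The 95% Clopper-Pearson intervals beside shares are exact, cover only counting error, and take neighbouring peaks as independent. Python 3.11.15, numpy 2.4.6, pandas 2.3.3, scipy 1.17.1 and matplotlib 3.10.9 were used.

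With 1 library per antibody there is no replicate error, and no test was made. The genes and comparisons were chosen with earlier results of these data known. The genes named are the 4 members and some annotated neighbours, and the 3 peaks of highest value per antibody and pair are described singly. Neighbouring genes, the value cut of 20, the 2 kb bins, the 15% length band and the shares of strong H3K27me3 peaks with Suz12 were added after seeing the data. The cut of at least 5 Suz12 peaks per domain equals the number in the first Zic1/Zic4 domain. Alternatives were windows of 5 and 50 kb, the upper 50% of each list, joining gaps of 1000 and 10000 bp, and genes placed 5 kb lower or higher.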

Additional observations from a re-analysis of the deposited data

How the results depend on the processing

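No replicate could be left out, and no paired analysis was possible because each antibody has 1 library. Of 110 recomputed values, 92 stayed within 1.5 times a count or length, or within the 95% interval of a share or median, and 18 did not. These are values of whole pairs. Peaks and covered shares of single genes, which changed when the genes were moved by 5 kb, are not among them. With a window of 5 kb, Zic2/Zic5 had 22 H3K27me3 peaks with a median of 18.5. With the upper 50% of each list, Suz12 peaks numbered 10 at Zic2/Zic5, with a median of 16.2, and 2 at Zic1/Zic4. At a joining gap of 1000 bp, Zic2/Zic5 had 2 domains, the longest 19.2 kb and 33.6 kb in sum, and the longest of Zic1/Zic4 was 11 kb, with 20.3 kb in sum, 17 H3K27me3 peaks and 15.3 kb covered. At 10000 bp, Zic1/Zic4 had 1 domain of 57.1 kb. With the upper 50% of H3K27me3 peaks, the Zic1/Zic4 domains summed to 28.1 kb, the longest 17.1 kb, with 17 peaks and 16.1 kb covered. Placing the genes 5 kb lower or higher, chosen after seeing the data, kept Suz12 at 23 and 5 peaks. Such a move could bring in no other Suz12 peak, because the nearest lay 4200 kb (Zic2/Zic5) and 7550 kb (Zic1/Zic4) outside the windows. Fewer peaks or a shorter gap shorten domains by construction. Gene positions remain estimates, unknown depth and the minimum value of 8 limit what missing peaks can show, and the related Gli and Glis genes were not analysed here.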

Other observations

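Before the Zic2/Zic5 genes lies Gm5089, a long noncoding RNA gene whose placed end reaches into the H3K27me3 domain. It carried 14 H3K27me3 peaks over 9.26% of its length, with values up to 16.94, and no Suz12 peak. Clybl, a coding gene that overlaps its other end, had no peak of either list with that shift, and 3 H3K27me3 peaks with the genes 5 kb higher. On chromosome 9, the noncoding Gm40546, before Zic1, carried 6 H3K27me3 peaks with values up to 21.31 with the mean shift, 2 with that of the flank before and 6 with that of the flank after, and no Suz12 peak with any of these shifts. Further noncoding genes and pseudogenes placed under the domains with the used shift carried H3K27me3 and no Suz12. These were Gm9399 after Zic2/Zic5, with 1 H3K27me3 peak, and A730094K22Rik, Gm40545 and Gm29478 around Zic1/Zic4, with 3, 2 and 2 H3K27me3 peaks. Gm40545, with 86.5% of its length under the mark with the mean shift, had the highest share of these 4. That share was 100% and 14.8% with the shifts of the flanks before and after, and 0% with the genes 5 kb lower or higher. Gm29478 had no H3K27me3 peak with the shift of the flank after. The neighbours described were chosen after their values were seen.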
